A study of Mus musculus with 24 samples.

Results

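The Hox genes of the mouse were described across 3 stages of neuronal differentiation in culture and across genotypes of Rest. A gene was taken as a member when the single symbol given for its probe set was Hox, a letter from a to d and a number. On the larger of 2 array platforms 37 of 19938 named genes met this rule, and on the smaller platform 33 of 18194 did. The larger platform held 10 genes of the Hoxa cluster (Hoxa2 to Hoxa7, Hoxa9, Hoxa10, Hoxa11 and Hoxa13), 9 of the Hoxb cluster (Hoxb1 to Hoxb7, Hoxb9 and Hoxb13), 9 of the Hoxc cluster (Hoxc4, Hoxc5, Hoxc6 and Hoxc8 to Hoxc13) and 9 of the Hoxd cluster (Hoxd1, Hoxd3, Hoxd4 and Hoxd8 to Hoxd13). The smaller platform lacked a single-symbol probe set for Hoxa6, Hoxc11, Hoxc12 and Hoxd4. Hoxb8 was measured only by a probe set that it shares with Hoxb7 and is no member.

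Hox genes encode homeodomain transcription factors that give cells of the embryo their position along the axis from head to tail. They lie in 4 clusters, and genes of the same number in different clusters are paralogs. Within a cluster the low numbers lie at the 3′ end, are switched on first and are expressed furthest towards the head, up to the hindbrain, and the high numbers follow later and further towards the tail. In stem cells the clusters are covered by Polycomb repression, and retinoic acid, which the published protocol for these cultures uses to make neuronal progenitors, activates their 3′ genes. REST, a zinc finger protein, represses neuronal genes in cells that are not neurons.

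The larger platform held 6 groups of 3 arrays from cells of strain Black Agouti 129: embryonic stem cells (ES) labelled RESTko and RESTwt, neuronal progenitors (NP) labelled RESTko and RESTwt, and terminal neurons (TN) labelled RESTko and RESThet, the heterozygous knock-out. The smaller platform held 2 arrays of each stage from wildtype cells whose strain is given as mixed 129Sv-C57Bl/6. Arrays are labelled as biological replicates a to c with no word on separate cultures or clones, so p-values measure the spread between these arrays. The RESTko cells have a RESTwt reference at ES and NP and a RESThet reference at TN, so stage and reference genotype cannot be told apart between NP and TN outside the RESTko arrays. All values are log2 signals of 1 probe set a gene. A signal has no fixed relation to the number of transcripts, and probe sets of different genes were not compared by level, only by their differences between groups.

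Rest itself, the targeted gene, had 8.63, 8.53 and 8.66 in the ES arrays labelled RESTko, against 8.95, 8.99 and 8.95 in RESTwt, a difference of -0.36 (SE 0.07, limma adjusted p = 0.00234). At NP the group means were 7.47 in RESTko and 7.48 in RESTwt, and at TN they were 7.37 in RESTko and 7.03 in RESThet. The difference followed the labels at ES, was not called at NP (adjusted p = 0.958) and ran the other way at TN (0.34, adjusted p = 0.0187). Which part of the gene the probe set covers, and which part was deleted, is not given in the sources used here, so genotypes below are those of the labels. Within groups the arrays correlated at 0.9925 to 0.9977 across genes. Markers followed the stage labels: all 6 pluripotency markers fell and all 6 progenitor markers rose between ES and NP in RESTko and in RESTwt, and all 6 neuron markers rose between NP and TN. Markers of other cell types moved with the stages too. Among all genes 66.0% were called between ES and NP in RESTko and 67.1% in RESTwt, and 71.0% between NP and TN in RESTko. Those of endoderm and epithelium rose between ES and NP for 5 of 8 in RESTko and 8 of 8 in RESTwt (medians 0.72 and 2.30) and fell between NP and TN for 7 of 8 in RESTko. Of 7 markers of fibroblasts and smooth muscle, 5 rose and 2 fell between ES and NP in RESTko, and 7 rose in RESTwt. Between NP and TN in RESTko 5 of these 7 rose and 1 fell (median 2.66). Between ES and NP 4 of 7 measured mesoderm markers rose and 1 fell in either genotype (medians 1.53 in RESTko and 1.79 in RESTwt). Of 4 measured neural crest markers 2 rose at least 4-fold in either genotype, and 1 fell in RESTwt. The part of these cell types in the Hox changes between stages was not tested. The mean level of the pluripotency markers at NP was 5.45 to 6.47 in RESTko and 6.10 to 7.02 in RESTwt. Fewer cells of a type and less RNA per cell cannot be told apart in these bulk samples.

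The promoters of 21 members were found in the RefSeq table (23 promoters, build GRCm38.p6, each a window of 300 bases that spans the start). Those of Hoxa5, which rose most of all members between ES and NP, of Hoxd4, which also rose and has a promoter poor in CpG, and of Hoxa13, which fell, are shown to set beside the stage changes. Capitals mark AGGTCA, the core site of nuclear receptors such as the retinoic acid receptors, or its reverse complement TGACCT, and TTTATGG, a core of sites bound by Cdx factors. The Hoxa5 promoter lies at chr6:52204538-52204837 on the minus strand, that of Hoxd4 at chr2:74721728-74722027 on the plus strand and that of Hoxa13 at chr6:52260831-52261130 on the minus strand.
Hoxa5: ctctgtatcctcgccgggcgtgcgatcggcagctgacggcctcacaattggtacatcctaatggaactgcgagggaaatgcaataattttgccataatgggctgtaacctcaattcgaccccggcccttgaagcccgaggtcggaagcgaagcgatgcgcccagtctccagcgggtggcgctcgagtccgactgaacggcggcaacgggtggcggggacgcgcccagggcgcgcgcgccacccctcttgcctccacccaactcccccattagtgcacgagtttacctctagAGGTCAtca
Hoxd4: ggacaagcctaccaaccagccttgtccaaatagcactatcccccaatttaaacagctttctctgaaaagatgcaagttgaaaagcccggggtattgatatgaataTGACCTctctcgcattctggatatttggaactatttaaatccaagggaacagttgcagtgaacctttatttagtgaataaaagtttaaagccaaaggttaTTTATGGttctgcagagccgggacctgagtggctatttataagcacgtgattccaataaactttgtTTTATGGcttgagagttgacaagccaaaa
Hoxa13: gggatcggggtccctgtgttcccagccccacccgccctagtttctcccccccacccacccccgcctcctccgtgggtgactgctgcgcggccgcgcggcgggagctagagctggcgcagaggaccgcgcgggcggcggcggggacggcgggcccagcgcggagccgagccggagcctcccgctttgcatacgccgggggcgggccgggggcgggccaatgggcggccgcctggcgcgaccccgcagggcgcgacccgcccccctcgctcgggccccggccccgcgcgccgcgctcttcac
The Hoxa5 window holds 29 CpG dinucleotides, the Hoxd4 window 4 and the Hoxa13 window 45. Over the 23 promoters the median was 15 CpG, against 7 over all 32851 promoters of the table. Promoters of paralogs 1 to 8 had a median of 12 CpG and those of paralogs 9 to 13 a median of 20. Searched on both strands, the core AGGTCA stood in 7 of the 23 promoters (30.4%, against 16.3% of all promoters): those of Hoxa5, Hoxb4, Hoxc4, Hoxd3, Hoxd4, Hoxd8 and Hoxd10. This search for the single core was added after the data were seen. The direct repeats of AGGTCA that retinoic acid receptors bind (DR5 and DR2) were in none of the 23 and in 3 promoters each of the whole table. TTTATGG stood in 1 of the 23 (4.35%, against 2.75% of all), at both places shown in Hoxd4. Of the end parts of the element that REST binds, TTCAGCACC was in 1 Hox promoter, that of Hoxd12 (4.35%, against 0.371%), and GGACAG in 3, those of Hoxa10, Hoxd1 and Hoxd11 (against 22.2% of all). These are matches of letters in a short window and are not evidence of binding.

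Between ES and NP the 3′ genes of all 4 clusters rose together, and the 5′ genes, apart from Hoxb9, changed little. In RESTko 28 of 37 members rose and 7 fell past an adjusted p of 0.05, and in RESTwt 27 rose and 7 fell. In all genes the test called 66.0% in RESTko and 67.1% in RESTwt in either direction, so a call alone says little of a member. Called higher were 6413 of 19938 genes in RESTko and 6177 in RESTwt. A rise of at least 4-fold was found for 19 members in RESTko and 19 in RESTwt, against 3.64% of all genes in RESTko and 3.35% in RESTwt. The median difference of the members was 2.12 in RESTko and 2.21 in RESTwt, against -0.04 and -0.07 over all genes of the same genotypes. All 21 members with paralog numbers 1 to 8 rose in both genotypes, 18 of them at least 4-fold. Of the 16 with numbers 9 to 13, 7 rose and 7 fell in RESTko, 6 rose and 7 fell in RESTwt, and Hoxb9 alone passed 4-fold in each. With no detection calls, the signals of those that fell are not shown to be above background. Of the members left after the dimmest 30% of genes were dropped, 23 rose and 1 fell in either genotype.

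**Figure D1:**
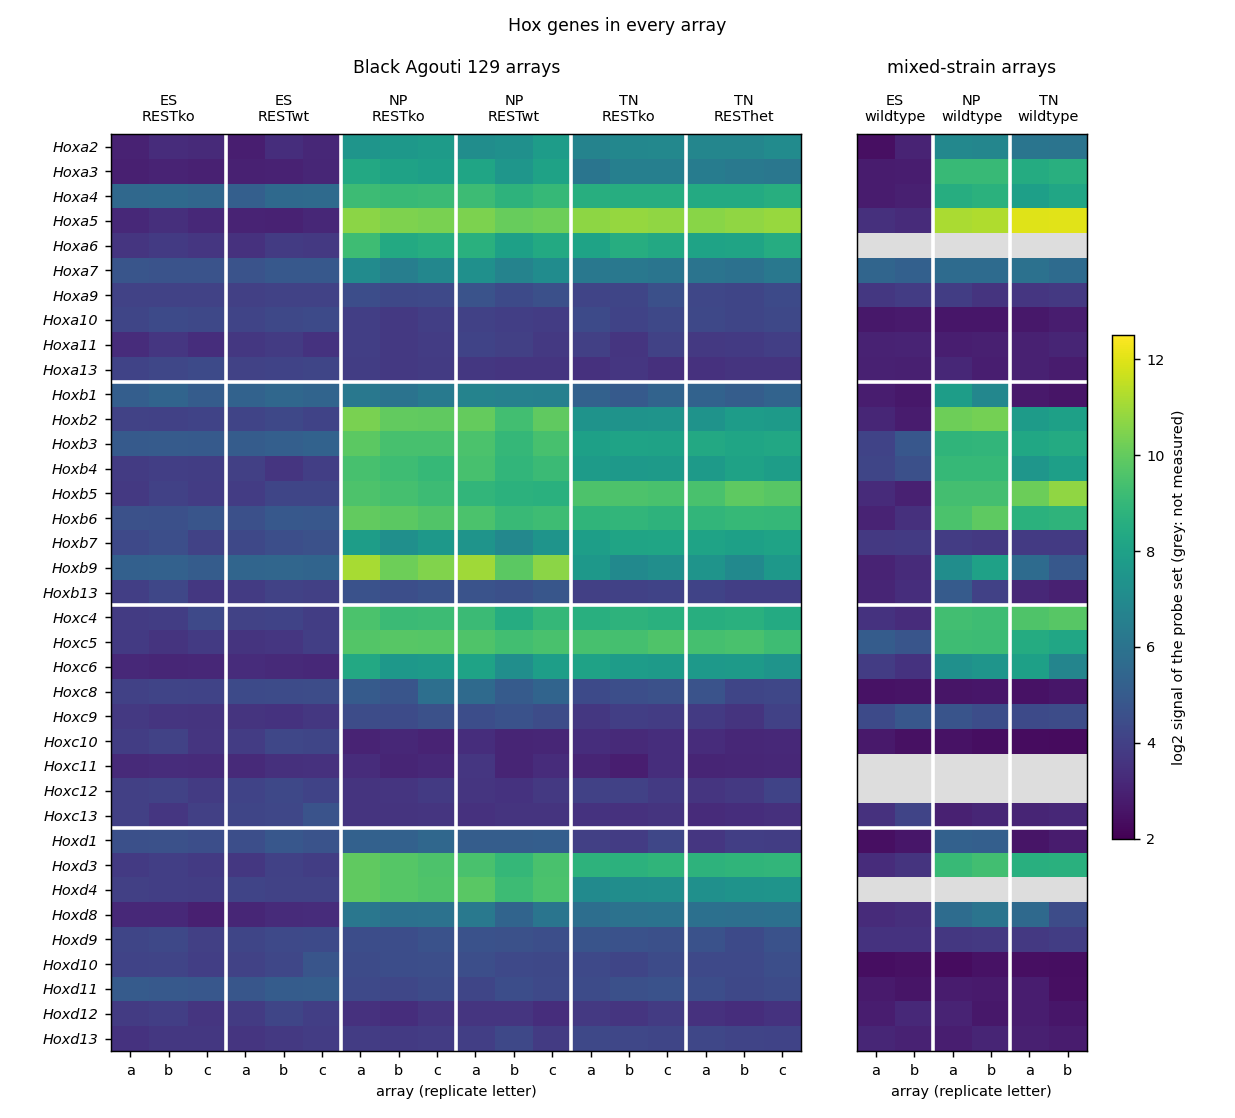
Log2 signal of each Hox gene (rows, by cluster and paralog number) in every array (columns, by stage and genotype); colours compare arrays within a row, and grey marks genes without a single-symbol probe set. Each paralog numbered 2 to 6 has a higher signal in every NP and TN array than in any ES array of its platform.

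In the Hoxa cluster, Hoxa5, whose product specifies cervical and upper thoracic levels and is needed for lung development, had 10.69, 10.48 and 10.40 in NP arrays of RESTko, against 3.21, 3.40 and 3.19 in ES. In RESTwt it had 10.42, 10.05 and 10.20 in NP and 3.064, 2.998 and 3.163 in ES. Its difference of 7.26 in RESTko (SE 0.10, adjusted p = 7.01e-19) and of 7.15 in RESTwt (SE 0.10, adjusted p = 1.07e-18) was the largest of the members in signal, 153-fold and 142-fold. With no detection calls, the ES signals are not shown to be above background, so these folds describe signal only. No NP array came near any ES array. Hoxa3, needed for the thymus, the parathyroid and the hindbrain, had 8.35, 8.05 and 7.93 in NP arrays of RESTko, against 2.93, 3.05 and 2.96 in ES. The RESTwt arrays had 8.19, 7.52 and 8.07 in NP and 2.974, 2.997 and 3.119 in ES, differences of 5.13 in RESTko and 4.90 in RESTwt. Its gene model overlaps those of Hoxa4, Hoxa5 and Hoxa6, and whether its probe set shares signal with them was not tested. The rest of the 3′ part of the cluster rose by 4.44 in RESTko and 4.27 in RESTwt for Hoxa2, which specifies the second branchial arch, by 3.598 and 3.53 for Hoxa4, by 5.04 and 4.64 for Hoxa6, and by 2.12 and 2.21 for Hoxa7. From Hoxa9 on the differences lay between -0.41 and 0.40 in RESTko and between -0.48 and 0.50 in RESTwt. Hoxa10 and Hoxa13, genes of the limb and urogenital tract, were among those that fell.

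The Hoxb cluster had 9 of 9 members called higher at NP in either genotype and 7 of 9 at least 4-fold higher. Hoxb3, a hindbrain gene whose model overlaps that of Hoxb4, rose by 4.58 in RESTko and 4.15 in RESTwt, Hoxb5 by 5.50 and 4.67, Hoxb6 by 5.19 and 4.53, and Hoxb7 by 3.26 and 2.79. Hoxb2, a gene of hindbrain rhombomeres, had 10.39, 9.98 and 9.94 in NP arrays of RESTko, against 4.07, 4.04 and 4.12 in ES, a difference of 6.02. Its RESTwt values were 10.01, 9.34 and 9.94 in NP and 4.17, 4.26 and 4.11 in ES, a difference of 5.58. Hoxb4, which marks the posterior hindbrain and the spinal cord, had 9.44, 9.23 and 9.02 in NP arrays of RESTko, against 3.83, 3.96 and 3.89 in ES, a difference of 5.34. In RESTwt it had 9.45, 8.92 and 9.16 in NP and 3.99, 3.61 and 3.96 in ES, a difference of 5.32. For both genes every NP array lay above every ES array. Hoxb9, a thoracic gene, was the only member numbered above 8 that rose this far, by 5.42 in RESTko (SE 0.25) and 5.08 in RESTwt (SE 0.25). It had 11.13, 10.16 and 10.51 in NP arrays of RESTko, against 5.23, 5.27 and 5.05 in ES. The RESTwt arrays had 10.995, 9.87 and 10.67 in NP and 5.44, 5.46 and 5.40 in ES, and array b was the lowest NP array in either genotype. Hoxb1, the rhombomere 4 gene and a direct target of retinoic acid receptors, rose by only 0.98 in RESTko and 1.23 in RESTwt. Hoxb13, the last gene of the cluster, rose by 0.63 and 0.71. The probe set that Hoxb8 shares with Hoxb7 was higher by 5.84 at NP in RESTwt, against 2.79 for the probe set of Hoxb7 alone.

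In the Hoxc cluster the rises of at least 4-fold ended at Hoxc6. Hoxc5 had 9.68, 9.77 and 9.72 in NP arrays of RESTko, against 3.77, 3.57 and 3.77 in ES, a difference of 6.02. Its RESTwt values were 9.61, 9.32 and 9.47 in NP and 3.57, 3.67 and 3.94 in ES, a difference of 5.74. Hoxc4 had 9.51, 9.17 and 9.20 in NP arrays of RESTko, against 3.84, 3.92 and 4.30 in ES, a difference of 5.27. In RESTwt it had 9.16, 8.49 and 8.995 in NP and 4.07, 4.12 and 3.90 in ES, a difference of 4.86. Hoxc6, a gene of brachial motor neurons, rose by 4.70 in RESTko and 4.46 in RESTwt. Hoxc8 and Hoxc9, which set brachial and thoracic motor neuron identity, rose by 1.11 and 0.84 in RESTko and by 0.95 and 0.92 in RESTwt. Hoxc10, a lumbar gene, fell by 0.77 in RESTko and 0.90 in RESTwt, Hoxc12 by 0.30 and 0.53, and Hoxc13 fell by 0.30 and 0.82. Hoxc11 was not called. The signals of Hoxc10, Hoxc12 and Hoxc13 are not shown to be above background at either stage, so these falls describe signal only.

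In the Hoxd cluster Hoxd3 and Hoxd4 carried the rise. Hoxd3 had 9.93, 9.73 and 9.59 in NP arrays of RESTko, against 3.77, 3.95 and 3.77 in ES, a difference of 5.92. The RESTwt arrays had 9.47, 8.99 and 9.47 in NP and 3.70, 4.01 and 3.92 in ES, a difference of 5.43. Hoxd4, whose activation in the hindbrain depends on retinoic acid, had 9.95, 9.72 and 9.62 in NP arrays of RESTko, against 3.99, 3.96 and 3.91 in ES, a difference of 5.81. Its RESTwt values were 9.80, 9.19 and 9.54 in NP and 4.15, 4.05 and 4.06 in ES, a difference of 5.42. NP and ES arrays did not overlap for either, and the models of the pair overlap. Hoxd8 rose by 2.91 in RESTko and 2.66 in RESTwt. Hoxd1 rose by 0.78 and 0.42, and Hoxd9 to Hoxd13, which pattern the limb and the genital bud, moved by -0.62 to 0.39 in RESTko and by -0.64 to 0.29 in RESTwt.

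**Figure D2:**
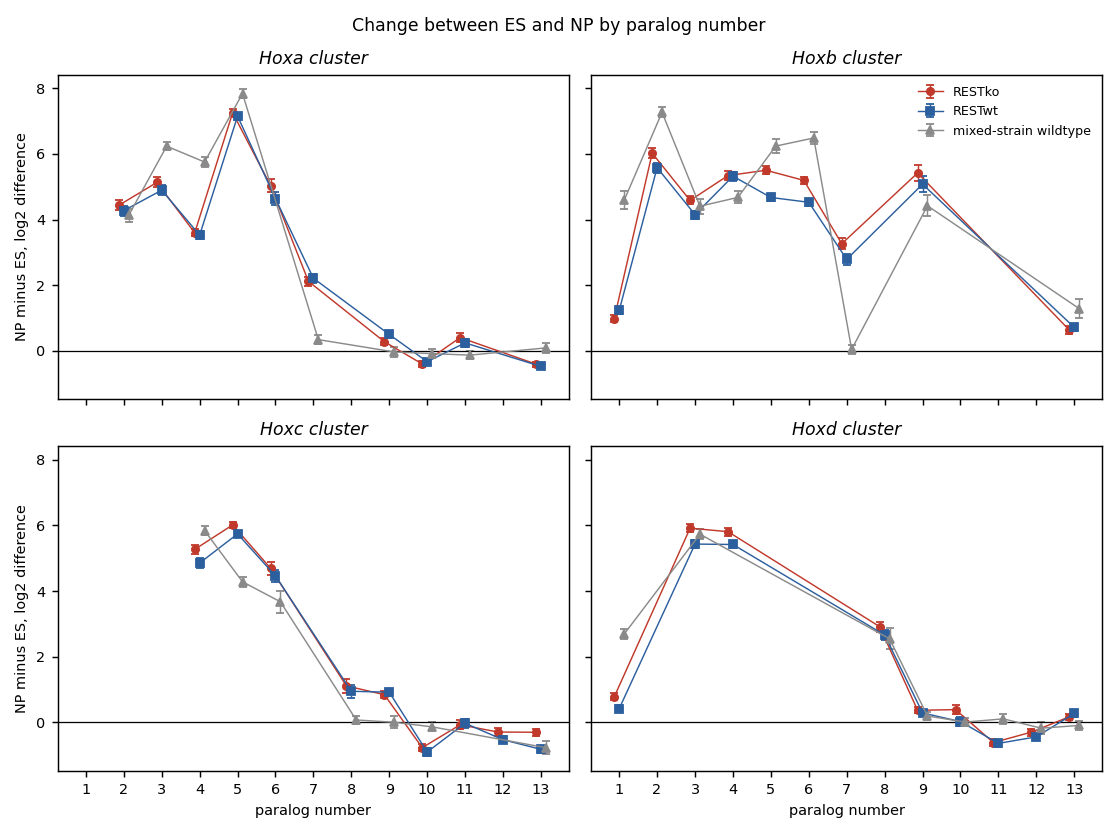
NP minus ES log2 difference (vertical axis, with SE) by paralog number (horizontal axis) in each cluster, for RESTko, RESTwt and the mixed-strain wildtype arrays. From paralog 9 onward the differences stay below 1 in all clusters except Hoxb, where Hoxb9 is above 4 in each.

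Across the whole cluster the difference was smaller at higher paralog numbers in 3 of the 4 clusters, but it was not graded gene by gene. In RESTwt Spearman's rho between paralog number and difference was -0.83 over 10 Hoxa genes, -0.88 over 9 Hoxc genes and -0.78 over 9 Hoxd genes, but -0.25 over 9 Hoxb genes. These are descriptions across genes measured on the same arrays, and genes are not independent replicates. Among the 3′ genes the order did not hold: in RESTwt Hoxa5 rose more than Hoxa2, Hoxa3 and Hoxa4, and Hoxc5 more than Hoxc4. On the larger platform Hoxb1 and Hoxd1 rose less than every other member of their clusters numbered up to 8. This ranking did not hold in the mixed strain, where Hoxb1 rose more than Hoxb3 and Hoxb7 (4.58, 4.41 and 0.04) and Hoxd1 more than Hoxd8 (2.69 and 2.55).

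The mixed-strain wildtype arrays, which share no sample with the other platform, showed 18 of 33 members higher and 1 lower at NP than at ES, against 38.9% of all genes called. At least 4-fold rises were found for 17 members, against 3.14% of all genes. The median difference was 2.55 over the members and -0.01 over all genes. Across the 33 genes the differences in RESTwt and in these arrays correlated at 0.89 (Pearson) and 0.86 (Spearman). Hoxa5 rose furthest here too: it had 11.16 and 11.25 in NP and 3.45 and 3.28 in ES, a difference of 7.84. Hoxb2 rose by 7.27, Hoxb6, a thoracic gene, by 6.49 and Hoxa3 by 6.24. Hoxb1 and Hoxd1 differed most between the platforms in this direction. Hoxb1 had 7.83 and 6.84 in NP and 2.83 and 2.67 in ES, a difference of 4.58, and Hoxd1 had 5.28 and 5.17 in NP and 2.42 and 2.65 in ES, a difference of 2.69. Hoxa7 and Hoxb7 differed the other way, with 0.34 and 0.04 in the mixed-strain arrays, neither called. The shared probe set of Hoxb8 and Hoxb7 on this platform was higher by 4.97. Other probe sets of the same gene on the smaller platform also differed: for Hoxa3 the 3 not used were higher by 0.38, 1.01 and 1.70, and for Hoxa5 the other was higher by 1.06. For Hoxa4 the other was higher by 0.62 (5.75 in the one used), and for Hoxc6 the others by 3.52 and 0.15 (3.67 in the one used). Those of Hoxc5 not used rose further, by 7.19 and 6.27 (4.28 in the one used). With the mean over probe sets in place of the brightest, the mixed-strain differences were 4.45 for Hoxa5 and 2.33 for Hoxa3. Platform and strain differ together here and cannot be told apart.

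Between NP and TN the members mostly fell or held. In RESTko 18 fell and 5 rose, against 29.2% of all genes that fell and 71.0% called in either direction. A called fall of at least 2-fold was found for 7 members, against 1886 of all 19938 genes. In TN of RESThet against NP of RESTwt 17 fell and 4 rose, against 29.9% of all genes that fell and 73.1% called. In the mixed-strain arrays 13 of 33 fell and 3 rose, against 29.1% that fell and 50.8% called. The median of the members was -0.29 in RESTko, -0.23 for RESThet against RESTwt and -0.15 in the mixed strain. The medians of all genes in the same 3 comparisons were 0.13, 0.14 and -0.09. The overall level of the arrays differed between these stages. Quantile normalization moved the median of all genes to -0.05 in RESTko and -0.06 for RESThet against RESTwt, and then 24 members fell and 2 rose in RESTko, and 24 fell and 3 rose for RESThet against RESTwt. Among all genes, calls were 58.9% higher in RESTko as deposited and 45.3% higher after quantile normalization, and 59.1% and 44.1% for RESThet against RESTwt.

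The deepest falls were those of Hoxb9 and of 3′ genes. Hoxb9 had 7.59, 6.98 and 7.21 in TN arrays of RESTko, against 11.13, 10.16 and 10.51 in NP, a difference of -3.34 (SE 0.25, adjusted p = 1.04e-09). It had 7.44, 7.002 and 7.61 in TN arrays of RESThet, against 10.995, 9.87 and 10.67 in NP of RESTwt, a difference of -3.16. It was the deepest fall of the members on this platform, 10.1-fold in RESTko. Hoxb2 had 7.41, 7.40 and 7.43 in TN arrays of RESTko, a difference of -2.69 from NP, and 7.41, 7.81 and 7.70 in RESThet, a difference of -2.12 from NP of RESTwt. Hoxd4 had 7.04, 7.14 and 7.20 in TN arrays of RESTko, a difference of -2.64, and 7.27, 7.41 and 7.42 in RESThet, a difference of -2.14. TN and NP arrays did not overlap for any of these 3 genes, and their TN arrays all stayed above the ES arrays. Hoxa3 fell by 1.74 in RESTko and 1.65 for RESThet against RESTwt, Hoxb3 by 1.54 and 1.06, Hoxb4 by 1.53 and 1.30, and Hoxd1 by 1.32 and 1.27. In the mixed strain Hoxb1 had 2.70 and 2.59 in TN, against 7.83 and 6.84 in NP, a difference of -4.69 (SE 0.27), which put it back at its ES values. Hoxd1 behaved alike there, with 2.61 and 2.79 in TN, a difference of -2.53.

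Hoxa5, Hoxb5 and Hoxb7 were among the members called lower at TN in none of the 3 comparisons. Hoxa5 had 10.71, 10.86 and 10.76 in TN arrays of RESTko, a difference of 0.25 from NP (adjusted p = 0.0364), and 10.63, 10.77 and 10.89 in RESThet, a difference of 0.54 from NP of RESTwt (adjusted p = 1.51e-04). In the mixed strain it had 11.97 and 12.04 in TN, a difference of 0.80. Hoxb5, which acts at the level of the brachial spinal cord and in the enteric nervous system, had 9.47, 9.91 and 9.76 in TN arrays of RESThet, a difference of 0.94 from NP of RESTwt. In RESTko its TN values of 9.58, 9.55 and 9.49 differed from NP by 0.16, which was not called. In the mixed strain it rose by 1.10. Hoxc5 differed by -0.23 in RESTko and -0.09 for RESThet against RESTwt, neither called, and fell by 0.86 in the mixed strain. Its probe sets not used there differed by -1.49 and -1.80. Hoxb7 rose by 0.51 in RESTko and 0.81 for RESThet against RESTwt. In the mixed strain its probe set had means of 3.75 at ES, 3.80 at NP and 3.79 at TN, so it says little of this step there. The probe set that Hoxb8 shares with Hoxb7 differed by -1.18 in RESTko and -0.17 in the mixed strain. Hoxc6 differed by -0.02 in RESTko and -0.01 in the mixed strain. The other members called higher in RESTko, Hoxa10, Hoxc12 and Hoxd13, rose by 0.29 to 0.41, and none of these 3 was called after quantile normalization.

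**Figure D3:**
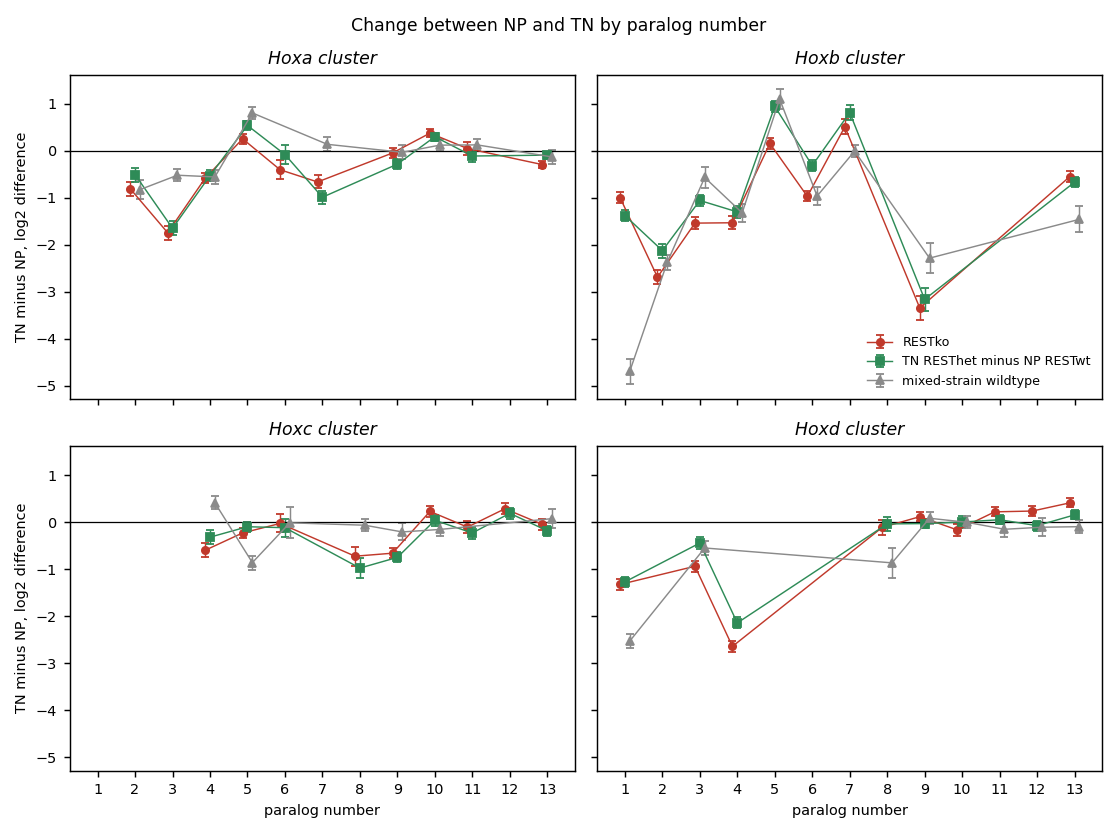
TN minus NP log2 difference (vertical axis, with SE) by paralog number (horizontal axis) in each cluster, for RESTko, for TN RESThet minus NP RESTwt, and for the mixed-strain wildtype arrays. Hoxb2, Hoxd4 and Hoxb9 lie lowest in the Black Agouti 129 arrays and Hoxb1 lowest in the mixed strain, while Hoxa5, Hoxb5 and Hoxb7 lie above 0 in the Black Agouti 129 arrays.

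The comparison of RESTko with RESTwt or RESThet asks whether loss of REST changes Hox expression at each stage. At NP, 4 of 37 members differed, 3 higher and 1 lower in RESTko, a share close to the 8.03% of all genes called. Hoxb5 had 9.55, 9.39 and 9.20 in RESTko, against 8.91, 8.73 and 8.66 in RESTwt, a difference of 0.61 (SE 0.12, adjusted p = 0.00363). Hoxb6 had 10.00, 9.84 and 9.66 in RESTko, against 9.51, 9.12 and 9.25 in RESTwt, a difference of 0.54 (SE 0.11, adjusted p = 0.00423). In both genes the 3 RESTko arrays lay above the 3 RESTwt arrays. Hoxd3, with the NP values given above, was higher by 0.44 in RESTko (SE 0.12, adjusted p = 0.0313), again without overlap. Hoxb1 had 6.21, 6.00 and 6.33 in RESTko, against 6.70, 6.62 and 6.57 in RESTwt, a difference of -0.45 (SE 0.11, adjusted p = 0.0198), and all RESTko arrays were the lower ones. All 4 differences are under 2-fold, the largest 1.53-fold.

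The calls of Hoxd3 and Hoxb1 were lost with any of several single arrays left out. Their differences then stayed at 0.28 to 0.52 for Hoxd3 and -0.53 to -0.36 for Hoxb1. Hoxd3 had an adjusted p of 0.175 without RESTko array a, 0.0685 without RESTko array b and 0.195 without RESTwt array b at NP. Hoxb1 likewise lost its call without RESTko array a or b or RESTwt array a or b, with an adjusted p of up to 0.0962 over all alternatives. With the 2 compared groups fitted alone, Hoxb5 alone was called, and Hoxb6 had an adjusted p of 0.0661. Hoxb5 was called under all 12 alternatives, with an adjusted p of 0.0013 to 0.032. Called or not, 18 of the 21 paralogs 1 to 8 had a difference above 0, with a median of 0.25, as had 5 of the 16 paralogs 9 to 13, with a median of -0.05. The median over all genes was 0.01. At an unadjusted p under 0.05 there were 12 of 37 members, against 3841 of all 19938 genes.

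Marker lists also differed between the genotypes, and no marker has a true zero on this scale. Since REST represses neuronal genes, its effect on neuron markers and a change in cell types cannot be told apart here. Of 6 neuron markers 5 were higher in RESTko at NP, and their mean level was 8.51 to 8.82 in RESTko arrays and 7.63 to 8.27 in RESTwt arrays. Of 7 markers of fibroblasts and smooth muscle 4 were lower in RESTko, with a mean level of 5.69 to 6.31 in RESTko and 6.44 to 6.85 in RESTwt. Of 8 markers of endoderm and epithelium 3 were lower and 1 higher, and RESTwt array b had the highest mean, 7.82, against 7.04 to 7.32 in the other 5 NP arrays. The same array was the lowest of RESTwt for 17 of the 21 paralogs 1 to 8, whose mean was 7.89 there, 8.36 in RESTwt array a and 8.24 in RESTwt array c, and 8.24 to 8.53 in RESTko. Of 7 mesoderm markers 2 were lower in RESTko at NP, and of 4 neural crest markers 1 was higher. At ES 4 of the 6 neuron markers, 3 of 8 of endoderm and epithelium and 2 of 7 of fibroblasts and smooth muscle were higher in RESTko. There 1 progenitor marker was also higher, and 1 pluripotency and 1 neural crest marker were lower. At TN no marker list had a member called between RESTko and RESThet. Among all genes 9.24% were called at ES, 8.03% at NP and 1.16% at TN. The part of these marker changes in the Hox differences was not tested.

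**Figure D4:**
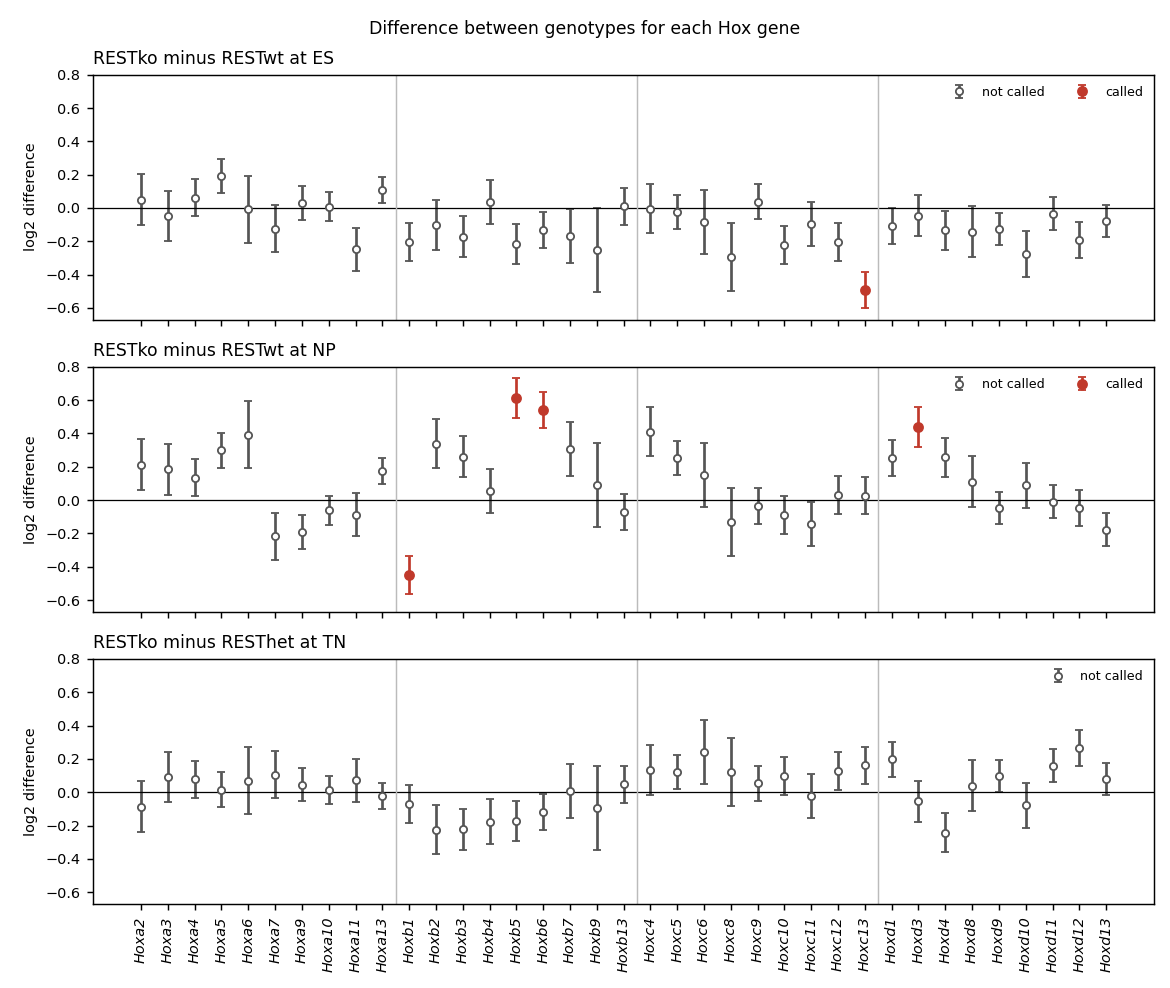
RESTko minus RESTwt or RESThet log2 difference (vertical axis, with SE) for each Hox gene (horizontal axis, by cluster) at ES, NP and TN; filled red points passed an adjusted p of 0.05. Hoxc13 passed at ES, Hoxb5, Hoxb6, Hoxd3 and Hoxb1 passed at NP, and no gene passed at TN.

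At ES, 1 of 37 members differed, against 9.24% of all genes. Hoxc13, known for its role in hair and nails, had 4.01, 3.67 and 3.99 in RESTko, against 4.20, 4.24 and 4.70 in RESTwt, a difference of -0.49 (SE 0.11, adjusted p = 0.00737). The groups did not overlap, RESTko array b and RESTwt array c stood farthest apart, and the adjusted p was 0.0524 without RESTko array b and 0.0724 with the 2 compared groups fitted alone. Its difference was -0.33 without RESTwt array c (adjusted p = 0.0398). It is a gene with low signals in every group, and it was not tested where the dimmest 30% of genes were left out. Of the 37 members 28 had a difference below 0 at ES, with a median of -0.10, against -0.03 over all genes. At TN 0 of 37 members differed between RESTko and RESThet by limma, against 1.16% of all genes called, and 1 member had an unadjusted p under 0.05, against 2342 of all 19938 genes. That gene was Hoxd12, at 0.26 (adjusted p = 0.321). The differences at TN lay between -0.24 and 0.26.

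Hoxb5 and Hoxb6 were the 2 members whose difference between genotypes changed with stage. The genotype difference at NP exceeded that at ES by 0.83 for Hoxb5 (SE 0.17, adjusted p = 0.00749) and by 0.67 for Hoxb6 (SE 0.15, adjusted p = 0.0149), where 4.87% of all genes were called. The genotype difference at TN minus that at NP was -0.79 for Hoxb5 (SE 0.17, adjusted p = 0.0138) and -0.66 for Hoxb6 (SE 0.15, adjusted p = 0.0210), where 3.91% of all genes were called. Hoxb5 had 3.75, 4.02 and 3.86 in ES arrays of RESTko, against 3.88, 4.20 and 4.20 in RESTwt, and Hoxb6 had 4.59, 4.57 and 4.76 in RESTko, against 4.57, 4.90 and 4.83 in RESTwt. At TN Hoxb6 had 8.89, 8.90 and 8.80 in RESTko, against 8.92, 9.04 and 8.98 in RESThet. The genotype groups of both overlapped at ES, and at TN those of Hoxb5 overlapped while those of Hoxb6 did not. Without RESTko array a or RESTwt array b at NP, or RESTko array c at TN, the adjusted p for Hoxb6 between NP and TN was up to 0.0624. The TN reference is RESThet and the NP reference RESTwt, which cannot be told apart from the stage.

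**Figure D5:**
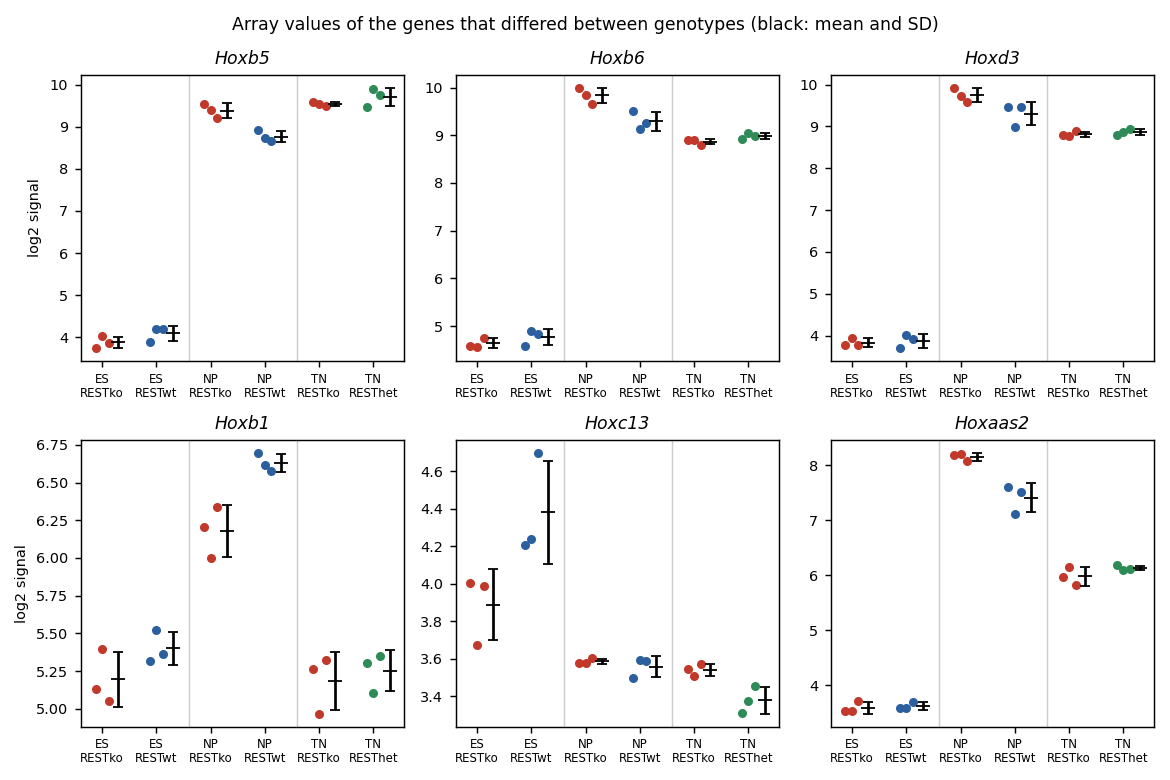
Log2 signal (vertical axis) of 5 Hox genes and the antisense RNA Hoxaas2 in each array of the Black Agouti 129 cells (coloured points, by stage and genotype), with the group mean and SD in black; each vertical axis has its own range and does not start at 0. At NP the RESTko arrays of Hoxb5, Hoxb6, Hoxd3 and Hoxaas2 lie above the RESTwt arrays and those of Hoxb1 lie below them.

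Other genes lie inside the clusters, among them the microRNAs of the miR-10 and miR-196 families, which sit between Hox genes and target Hox transcripts. All genes of the RefSeq table inside a cluster were taken, a set added after the data were seen, and 10 were measured on the larger platform and 5 on the smaller one. The array probes the RNA of the locus and says nothing of the mature microRNA. The 5p strands are shown because their seeds (bases 2 to 8, in capitals) split the families as the loci split by stage change. They are at chr11:96317186-96317208 (plus strand, Mir10a), chr2:74726074-74726096 (plus strand, Mir10b), chr11:96265187-96265208 (plus strand, Mir196a-1), chr15:102973365-102973386 (plus strand, Mir196a-2, the same mature sequence) and chr6:52230129-52230150 (minus strand, Mir196b) in GRCm38.p6, from RefSeq.
mmu-miR-10a-5p: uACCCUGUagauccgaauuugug
mmu-miR-10b-5p: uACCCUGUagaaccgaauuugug
mmu-miR-196a-5p: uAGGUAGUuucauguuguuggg
mmu-miR-196b-5p: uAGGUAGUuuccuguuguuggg
Mir10a, next to Hoxb4, and Mir10b, next to Hoxd4, share the seed ACCCUGU and rose at NP. Mir10b had 7.30, 7.10 and 6.80 in NP arrays of RESTko, against 2.19, 2.33 and 2.49 in ES, a difference of 4.73. In RESTwt it had 6.84, 6.41 and 6.81 in NP and 2.39, 2.35 and 2.36 in ES, a difference of 4.32. Mir10a rose by 3.06 in RESTko and 3.05 in RESTwt. Their models lie within or against those of Hoxb3, Hoxd3 and Hoxd4, and the part of those transcripts in the signal was not tested. Loci with the seed AGGUAGU, which lie beside paralogs 9 and 10, did not rise: Mir196b fell by 0.36 in RESTko and 0.33 in RESTwt, Mir196a-2 had -0.35 in RESTko and -0.32 in RESTwt, and Mir196a-1 had -0.21 in RESTko and -0.80 in RESTwt. The fall of Mir196a-2 was called in RESTko and that of Mir196a-1 in RESTwt. At TN Mir10b fell by 1.91 in RESTko and 1.42 for RESThet against RESTwt, and Mir10a by 0.53 and 0.75. Mir615, inside the Hoxc5 model, had 0.01 in RESTko and -0.35 in RESTwt between ES and NP and was called lower in RESTwt.

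All 4 long noncoding RNAs measured inside the clusters on the larger platform rose between ES and NP. Among all genes 66.0% were called at this step in RESTko and 67.1% in RESTwt, and 8.03% between the genotypes at NP. Hoxaas2, which overlaps the Hoxa3 model, had 8.19, 8.21 and 8.08 in NP arrays of RESTko, against 7.61, 7.11 and 7.52 in RESTwt. That difference of 0.75 (SE 0.11, adjusted p = 3.24e-04) was called under all 12 alternatives, while Hoxa3 itself differed by 0.19 and was not called. Hoxaas2 rose between ES and NP by 4.57 in RESTko and 3.79 in RESTwt. Haglr, at the Hoxd1 end of its cluster, rose by 2.99 in RESTko and 2.61 in RESTwt, and was higher by 0.41 in RESTko at NP (adjusted p = 0.0392), a call that 6 of 12 alternatives did not keep. Hoxd3os1 rose by 3.98 in RESTko and 3.70 in RESTwt, and 5730596B20Rik by 2.93 and 2.58. At TN Hoxd3os1 fell by 3.14 in RESTko and 2.64 for RESThet against RESTwt, while in the mixed strain it rose by 2.54 at NP and differed by 0.96 at TN, which was not called. Gm38462, whose model overlaps Hoxd3 and Hoxd8, was not called in the mixed strain at either step (0.28 and 0.25). Nor was Hoxa11os, whose model overlaps Hoxa11 (0.21 and -0.25). In the mixed strain Gm15050, whose model overlaps Hoxa3, rose by 5.07 at NP and fell by 2.72 at TN, and Hoxb5os, whose model overlaps Hoxb5 and Hoxb6, rose by 7.92 at NP and fell by 4.05 at TN, where Hoxb5 rose by 1.10. Whether the probes read 1 strand only is not given in the sources used here, so antisense and sense signal cannot be told apart.

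Genes just outside the clusters did not rise as a set, though some of them did. Of the 24 protein-coding genes taken as the 3 nearest measured on each side, 10 rose and 10 fell between ES and NP in RESTko, and 9 rose and 10 fell in RESTwt, with medians of -0.17 and -0.20. Among all genes 66.0% were called in RESTko and 67.1% in RESTwt, and 3.64% rose at least 4-fold in RESTko. The rises of at least 4-fold in RESTko were those of 2 genes, named after their values were seen: Smug1, the DNA glycosylase gene next to Hoxc4, at 3.84 in RESTko and 3.31 in RESTwt, and Skap2, next to the 3′ end of the Hoxa cluster, at 2.04 in RESTko and 1.87 in RESTwt. Smug1 had 9.39, 8.63 and 8.67 in NP arrays of RESTko, against 5.16, 4.97 and 5.04 in ES. Skap1, next to the 3′ end of the Hoxb cluster and also named after its values were seen, rose by 0.51 in RESTko and 0.70 in RESTwt. The homeobox genes at the 5′ ends, Evx1 and Evx2, fell by 0.38 and 0.50 in RESTko and by 0.39 and 0.62 in RESTwt. None of the 24 differed between genotypes at ES, NP or TN by limma, against 9.24%, 8.03% and 1.16% of all genes.

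Genes that act with or on Hox proteins were read against the 66.0% of all genes called between ES and NP in RESTko and 67.1% in RESTwt. Of 8 measured TALE cofactors, homeodomain proteins that bind DNA together with Hox proteins, 7 rose and 0 fell in RESTko and 7 rose and 1 fell in RESTwt between ES and NP. The largest were Meis1 at 5.91 in RESTko and 5.86 in RESTwt, Meis2 at 6.25 and 5.43, Pbx3 at 3.17 and 2.50 and Pknox2 at 2.91 and 2.82. At NP Meis1 and Meis3 were higher in RESTko by 0.27 and 0.40, and at ES Meis2 was lower in RESTko by 0.61. These were 2 of 8 cofactors at NP and 1 of 8 at ES, against 8.03% and 9.24% of all genes called. Of 11 measured upstream factors and retinoic acid genes, 6 rose and 3 fell in RESTko and 7 rose and 3 fell in RESTwt. Rarb, a receptor gene that retinoic acid induces, rose by 6.38 in RESTko and 6.31 in RESTwt. Cyp26a1 and Cyp26b1, which degrade retinoic acid, rose by 5.80 and 5.44 in RESTko and by 5.93 and 4.88 in RESTwt, and Rara rose by 2.21 and 2.04. All 4 fell again at TN in RESTko, Cyp26a1 by 5.51, Cyp26b1 by 4.99, Rara by 2.58 and Rarb by 2.40. At NP Cdx1, an activator of trunk Hox genes, and the receptor gene Rarg were lower in RESTko by 0.32 and 0.50. They were the 2 of these 11 called between genotypes at NP, against 8.03% of all genes.

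Of 13 measured forebrain and midbrain factors 6 rose and 4 fell between ES and NP in either genotype, where 66.0% of all genes were called in RESTko and 67.1% in RESTwt. In the mixed strain 2 of the 13 rose and 2 fell. Otx2, the gene of the forebrain and midbrain that is also on in stem cells, fell by 4.09 in RESTko, 4.15 in RESTwt and 6.06 in the mixed strain. Emx2 and Lhx2, both telencephalic genes, rose by 2.15 and 1.30 in RESTko, by 2.18 and 1.41 in RESTwt and by 0.75 and 0.79 in the mixed strain. Hesx1 fell by 0.90 in RESTko and 1.11 in RESTwt. En2 was lower in RESTko by 0.47 at ES and 0.65 at NP, the 1 of 13 called at either stage, against 9.24% and 8.03% of all genes.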

How the data were processed

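Total RNA was hybridised to 24 arrays of 2 Affymetrix platforms. The authors deposited 1 table of log2 values per platform; the log2 scale was read from the values and tool, and oligo 1.14.0 is named in the submitters' processing notes. How they were normalized, and over which arrays at once, is not given in the sources used here. Probe sets were named through GEO's platform annotation: of 35556 on the larger platform 21789 had 1 symbol, 1621 several and 12146 none, and of 45101 on the smaller 34958, 932 and 9211. The single-symbol probe set with the highest mean stood for a gene. There are no detection calls, and the number of arrays limits the precision.

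Each platform was fitted on its own in limma 3.58.1 (R 4.3.3), with a mean per group and the empirical Bayes spread shared over its groups, and with Benjamini-Hochberg adjustment across every gene tested (called: adjusted p under 0.05). The scripts were tested on simulated data. Per-array values are given for members called between genotypes and for the 2 members per cluster with the largest NP minus ES difference in RESTwt, and for some others chosen after their values were seen; of other lists up to 4 called members are named. The alternatives were a replicate block, the compared groups alone, quantile normalization, the dimmest 30% of genes left out, the mean over probe sets, a trended robust fit and each array left out. Members, lists and tests were chosen with earlier results of these data known. Same-lettered arrays of the 2 genotypes deviated together at NP for letters a and b (correlations of 0.399 and 0.309) but not for c (0.007). The main fit still took no letters as pairs, because their meaning beyond replicate names is unknown. The replicate block among the alternatives allowed for them.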

Additional observations from a re-analysis of the deposited data

Results flagged for a closer look

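The genotype difference of Hoxb5 and of Hoxb6 depended on the stage by a test of the interaction in limma. From ES to NP the RESTko minus RESTwt difference changed by 0.83 for Hoxb5 (adjusted p = 0.00749) and by 0.67 for Hoxb6 (adjusted p = 0.0149). From NP to TN it changed by -0.79 for Hoxb5 (adjusted p = 0.0138) and by -0.66 for Hoxb6 (adjusted p = 0.0210), with RESThet in place of RESTwt at TN. These were 2 of 37 members at either step, close to the 4.87% and 3.91% of all genes called. With single arrays left out, the limma adjusted p for Hoxb6 from NP to TN was up to 0.0624.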

How the results depend on the processing

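The count of Hox genes called between RESTko and RESTwt at ES, 1 in the fit reported, was 0 with the dimmest 30% of genes left out, where 24 members were tested, and 0 to 1 with single arrays left out. At NP the count of 4 was 1 with the compared groups alone and 2 to 6 with single arrays left out, and at TN it stayed 0 to 0. The change of the genotype difference between NP and TN, 2 genes, gave 1 to 3 with single arrays left out, and that between ES and NP 2 to 3. With single arrays left out, NP minus ES gave 31 to 34 calls in RESTko, 32 to 35 in RESTwt and 18 to 19 in the mixed strain. TN minus NP gave 21 to 24 in RESTko, 19 to 26 for RESThet against RESTwt and 12 to 16 in the mixed strain. The replicate block changed no count by over 1.5 times, with 28 higher and 7 lower in RESTko and 27 higher and 7 lower in RESTwt between ES and NP. No difference reported as called changed sign under any alternative run. The cause of these changes was not tested, apart from the fewer genes or arrays in a fit.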
